A study of Mus musculus with 88 samples.

Results

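The effect of the APP/PSEN1dE9 transgenes in mice with human APOE4 was measured in frontal cortex RNA of 20 of the 88 mice in the series, by setting 14 APP/E4 mice against 6 E4 mice. Mice were placed by their labels alone. Both groups carried human *APOE4* in place of mouse *Apoe* by targeted replacement, both had intact *Trem2*, and both were on a C57BL/6 background and 6.5 months old. APP/E4 mice also carried APPswe, a mouse and human hybrid amyloid precursor protein with the Swedish mutation, and PSEN1dE9 (7 females and 7 males). E4 mice were littermates without the transgenes (4 females and 2 males). The whole series crosses APOE3 or APOE4, the APP transgenes and intact or deleted *Trem2* in 8 genotypes, with 1 library per mouse. Of 14451 genes in the table, the 14086 with a mean of at least 1 CPM (a gene's read count divided by the M reads of its library, so that libraries of unequal depth share a scale) were compared.

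In this line both transgenes are driven by mouse prion protein promoter vectors, which are active mainly in neurons and carry non-coding *Prnp* sequence. The amyloid precursor protein is cut by beta-secretase and then by gamma-secretase to release amyloid-beta. Amyloid-beta aggregates into plaques, around which microglia gather and take on a disease-associated state, and nearby astrocytes become reactive. Apolipoprotein E carries cholesterol from astrocytes to neurons, and the APOE4 isoform is the strongest common genetic risk factor for late Alzheimer's disease. The comparison asks which cortical transcripts differ with the transgenes when APOE4 is present in all mice.

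The libraries held 41.0 to 61.6 M reads on the listed genes in APP/E4 mice (median 44.4 M) and 43.6 to 48.0 M in E4 mice (median 45.2 M). The cortical identity of the tissue was carried by *Slc17a7*, the vesicular glutamate transporter of cortical excitatory neurons, at 1996 to 2778 CPM in APP/E4 and 1995 to 2499 in E4 mice. Markers of neighbouring tissue varied between libraries of both groups. Summed keratins reached 1 CPM in 10 of 14 APP/E4 and 4 of 6 E4 libraries, and these 4 were all 4 E4 females. The striatal dopamine receptor *Drd2* reached 10 CPM in 4 of 14 and 4 of 6, the choroid plexus gene *Ttr* 100 CPM in 1 of 14 and 1 of 6, and the plasma protein gene *Alb* 50 CPM in 3 of 14 and 0 of 6.

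*App* and *Prnp* rose in APP/E4 mice, and no other gene of the 14086 passed the test. With limma on log2(CPM + 0.5), 8 genotypes and sex as terms and Benjamini-Hochberg adjustment over all genes, 2 genes were higher (0.0142%) and 0 lower at an adjusted p under 0.05. At an unadjusted p under 0.05 limma gave 428 genes higher (3.04%) and 881 lower (6.25%). edgeR on reads recovered from the table called the same 2 genes higher (0.0142%) and 1 lower (0.0071%), and DESeq2 called 7 higher (0.0497%) and 3 lower (0.0213%). The split of genes at an unadjusted p under 0.05 turned with the scaling, to 726 higher and 585 lower with TMM factors, 746 (5.3%) and 571 (4.05%) with edgeR, 855 (6.07%) and 499 (3.54%) with DESeq2 and 645 and 412 after a correction for gene length and GC content. The median log2 fold change of all genes was -0.04, with 38.7% of genes above 0, and the other values below are read beside it.

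*App*, the amyloid precursor protein gene, lies on chromosome 16 from 84949685 to 85173766 on the minus strand (GRCm38, GENCODE). It ranged from 3561.8 to 5746 CPM in APP/E4 mice (median 5040) and from 1972 to 2339 in E4 mice (median 2161). The lowest APP/E4 mouse lay above the highest E4 mouse. The means were 5032 ± 571 CPM (SD, n = 14) and 2147 ± 162 (SD, n = 6), a ratio of 2.34 and a difference of 2886 CPM (exact 2-sided permutation test, p = 2.58e-05, adjusted p = 3.87e-05 over 3 genes, the raw p being the smallest that 38760 regroupings allow). The limma log2 fold change was 1.23 (95% interval 1.09 to 1.37, adjusted p = 2.71e-25).

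*Prnp*, the prion protein gene, lies on chromosome 2 from 131909928 to 131938429 on the plus strand. It ranged from 2075 to 3312 CPM in APP/E4 mice (median 2575) and from 710 to 918 in E4 mice (median 757). As for *App*, the groups did not overlap. The means were 2576 ± 334 CPM (SD, n = 14) and 780 ± 79.0 (SD, n = 6), a ratio of 3.30 (exact permutation p = 2.58e-05, adjusted p = 3.87e-05). The log2 fold change was 1.73 (1.59 to 1.87, limma adjusted p = 6.35e-35). Gene-level CPM cannot tell reads of the endogenous gene from reads of non-coding *Prnp* sequence in the transgene vectors.

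The promoter windows of both genes are shown because the *Prnp* promoter drives the transgenes while the endogenous *App* promoter does not. Each window runs from 250 bases before to 50 after the RefSeq transcription start (GRCm38.p6), 5′ to 3′ on the gene's own strand. Capitals mark GC boxes, the Sp1 motif GGGCGG on either strand, which 35.7% of 32851 RefSeq windows of this length hold. The *Prnp* window, chr2:131909678-131909977 on the plus strand, holds 3 and the *App* window, chr16:85173658-85173957 on the minus strand, holds 1.
Prnp: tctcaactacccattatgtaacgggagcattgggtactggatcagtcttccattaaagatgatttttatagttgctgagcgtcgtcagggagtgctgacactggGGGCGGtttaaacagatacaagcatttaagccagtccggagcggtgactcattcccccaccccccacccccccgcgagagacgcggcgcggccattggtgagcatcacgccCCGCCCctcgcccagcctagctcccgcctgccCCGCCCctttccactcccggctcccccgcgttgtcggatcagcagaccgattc
App: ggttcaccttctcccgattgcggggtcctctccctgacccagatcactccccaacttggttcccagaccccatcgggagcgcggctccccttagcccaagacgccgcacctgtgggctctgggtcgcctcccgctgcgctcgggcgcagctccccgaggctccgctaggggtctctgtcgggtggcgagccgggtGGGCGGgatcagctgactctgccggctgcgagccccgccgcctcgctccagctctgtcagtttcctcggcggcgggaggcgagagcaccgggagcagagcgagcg

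**Figure D1:**
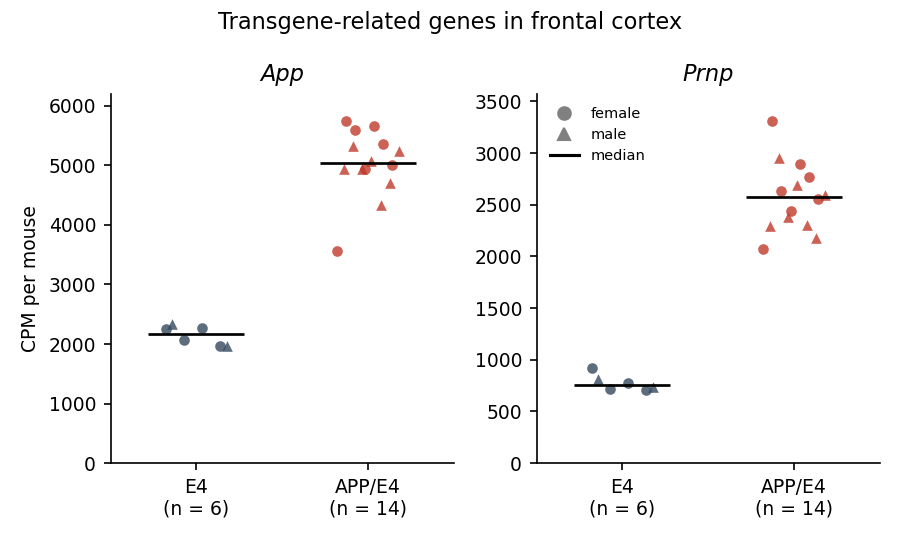
CPM of *App* and *Prnp* per mouse (linear axis from 0) in 6 E4 and 14 APP/E4 mice, with circles for females, triangles for males and a line at the group median. *App* and *Prnp* are higher in every APP/E4 mouse than in any E4 mouse, at medians of 5040 against 2161 and 2575 against 757 CPM.

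Among the 14 APP/E4 mice *App* and *Prnp* varied together. Pearson's r was 0.823 (permutation p = 0.0004, adjusted p = 0.0012 over 3 pairs) and Spearman's rho 0.930 (p = 1e-05, the smallest that 100000 resamples give, adjusted p = 3e-05). Without the 2 mice farthest from the *App* median r was 0.857. Both measures share the library of each mouse.

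The transgene signal had the same direction in the other backgrounds of the series, which share no mouse with these groups. *App* had a log2 fold change of 1.17 in APP/E3 against E3 mice, 1.19 in APP/E4/Trem2ko against E4/Trem2ko mice and 1.3 in APP/E3/Trem2ko against E3/Trem2ko mice. *Prnp* had 1.39, 1.67 and 1.79, so that without *Trem2* the APOE3 value was the higher one. With intact *Trem2* the *Prnp* change was 0.34 larger with APOE4 than with APOE3 (0.14 to 0.53) at an unadjusted p of 0.000826, which missed the threshold over all genes (limma adjusted p = 0.759), and the *App* change differed by 0.06 (-0.13 to 0.25). Across all genes, 0 differed in the transgene effect between APOE4 and APOE3 at an adjusted p under 0.05 in limma, and 856 (6.08%) did at an unadjusted p under 0.05. Between intact and deleted *Trem2* in APOE4 mice 0 differed at an adjusted p and 2167 (15.4%) at an unadjusted p under 0.05.

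Genes for proteins that process or bind the precursor were not called with *App*. Of 12 secretase genes 0 were called, 1 of 12 was higher at an unadjusted p under 0.05 (3.04% of all genes), and the median log2 fold change was -0.01. That gene was *Bace1*, the beta-secretase, at 97.9 to 126 CPM in APP/E4 and 93.9 to 112 in E4 mice, which overlapped (0.12, 0.01 to 0.22, limma adjusted p = 0.508). *Adam10*, the main alpha-secretase of neurons, had 0.14 (-0.02 to 0.30, adjusted p = 0.578). Among 13 members of the APP family and its binding partners only *App* was called. Of 11 genes that degrade or clear amyloid-beta 0 were called, with a median of 0.01, and *Mme*, the amyloid-beta degrading enzyme neprilysin, had -0.30 (-0.95 to 0.34, adjusted p = 0.771).

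The 9 genes tested near *Prnp* on chromosome 2 did not share its increase. Of these 0 were called and their median was -0.07. *Smox*, spermine oxidase, had the smallest p, at 28.7 to 38.5 CPM in APP/E4 and 34.3 to 47.4 in E4 mice (-0.26, -0.46 to -0.06, limma adjusted p = 0.480). *Cds2*, a phospholipid synthesis enzyme, had 0.15 (-0.01 to 0.31, adjusted p = 0.570).

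**Figure D2:**
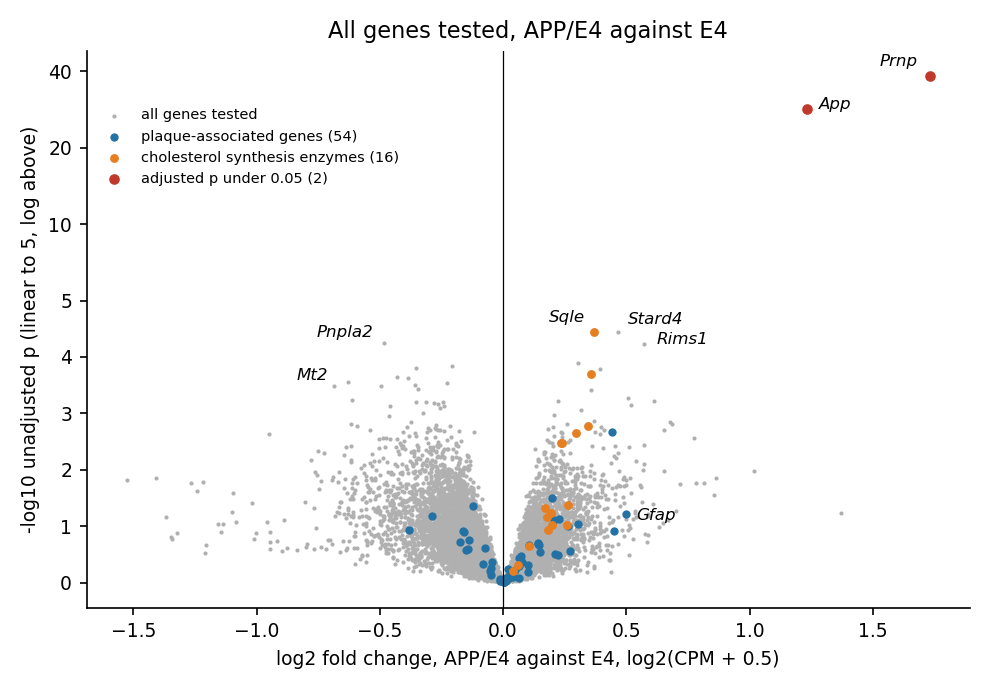
Log2 fold change in APP/E4 against E4 mice on log2(CPM + 0.5) (x) and -log10 of the unadjusted limma p (y, linear to 5 and log above) for 14086 genes. *App* and *Prnp* stand apart at 1.23 and 1.73, all 16 cholesterol synthesis enzymes lie to the right of 0 and the 54 plaque-associated genes lie on both sides.

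After *App* and *Prnp*, genes of cholesterol supply had the smallest p-values on the higher side, and none passed adjustment in limma. All 16 cholesterol synthesis enzymes had a log2 fold change above 0, against 38.7% of all genes, with a median of 0.22 and a range of 0.04 to 0.37. Of the 16, 0 were called and 8 were higher at an unadjusted p under 0.05 (3.04% of all genes). Summed over the 16 the level was 1061 to 1638 CPM in APP/E4 (median 1319) and 1046 to 1222 in E4 mice (median 1064), and 13 of 14 APP/E4 mice lay above the E4 median. The pathway is controlled by SREBP-2, a transcription factor released when membrane sterol is low, which also induces the sterol carrier Stard4.

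*Sqle*, squalene epoxidase, a rate-limiting step late in the pathway, lies on chromosome 15 from 59315077 to 59331192. It was 74.2 to 139 CPM in APP/E4 mice (median 98.8). The 6 E4 mice held 72.2, 74.8, 74.8, 75.1, 80.0 and 92.5 CPM. The groups overlapped, with 11 of 14 APP/E4 mice above the highest E4 mouse (log2 fold change 0.37, 0.20 to 0.54, limma adjusted p = 0.127). DESeq2 called *Sqle*, and limma called it without APP/E4 replicate 1 or without E4 replicate 6.

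*Stard4*, a carrier that moves sterol between membranes, was 31.1 to 51.1 CPM in APP/E4 mice (median 43.0). The 6 E4 mice held 27.2 to 33.6 CPM (median 30.5). In all, 13 of 14 APP/E4 mice lay above the highest of them (0.46, 0.25 to 0.68, limma adjusted p = 0.127). The range of adjusted p over all alternatives was 0.0227 to 0.998 for *Stard4* and 0.0116 to 0.957 for *Sqle*.

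**Figure D3:**
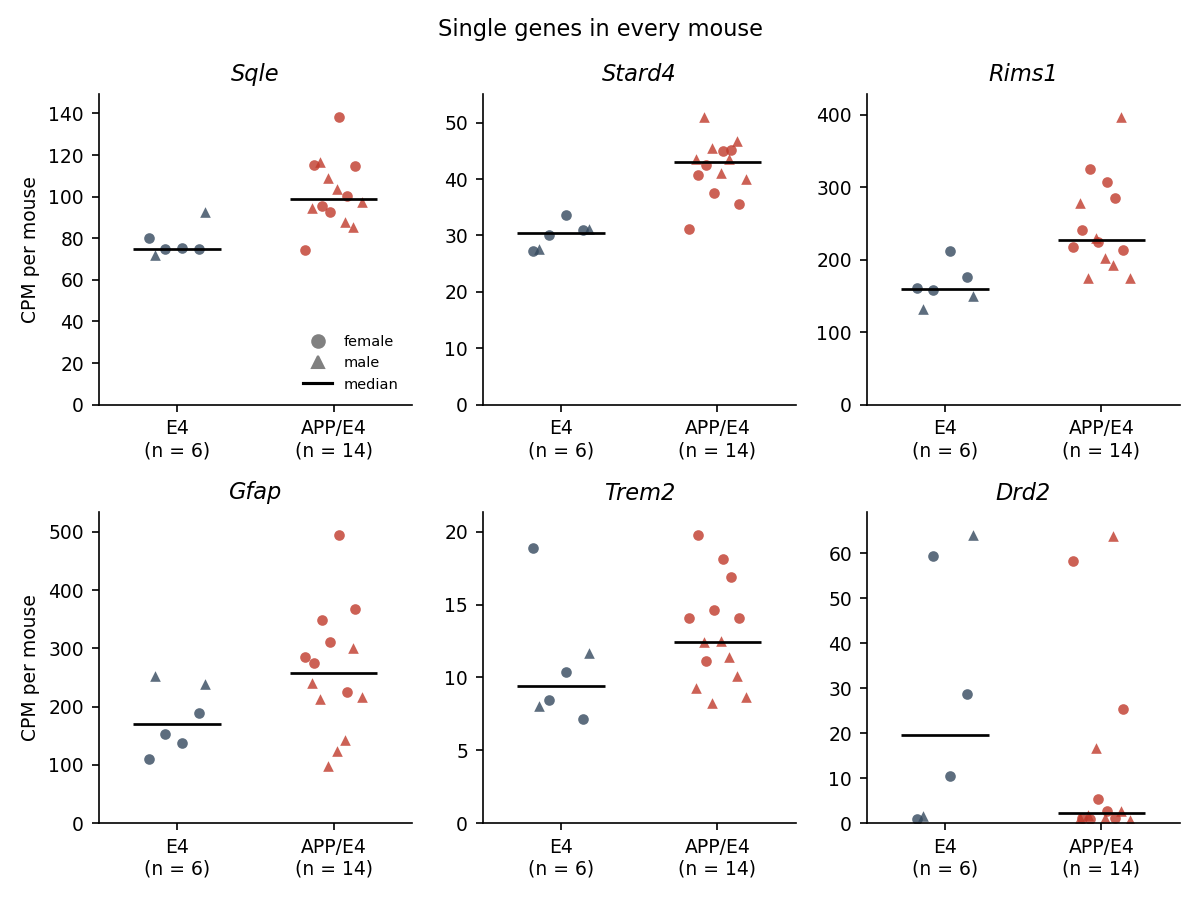
CPM of *Sqle*, *Stard4*, *Rims1*, *Gfap*, *Trem2* and *Drd2* per mouse (linear axes from 0) in 6 E4 and 14 APP/E4 mice, with circles for females, triangles for males and a line at the group median. *Stard4* overlaps by 1 APP/E4 mouse, *Rims1* has 10 of 14 APP/E4 mice above all E4 mice, *Gfap* is split by sex, and *Drd2* is above 10 CPM in 4 mice of each group.

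*Hmgcs1*, another enzyme of the pathway, lies on chromosome 13 from 119690379 to 119708260. It was 335 to 482 CPM in APP/E4 (median 399) and 279 to 352 in E4 mice (median 311), with 13 of 14 APP/E4 mice above all E4 mice (0.36, 0.17 to 0.54, limma adjusted p = 0.257). *Hsd17b7* and *Sc5d*, enzymes of the steps that turn lanosterol into cholesterol, had 0.30 and 0.24 (limma adjusted p of 0.448 and 0.460). *Dhcr7* at 0.04 (-0.13 to 0.22) and *Mvk* at 0.06 (-0.11 to 0.23) were nearest to 0.

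The *Hmgcs1* promoter window is shown because its sterol regulatory element is the binding site of SREBP in textbook accounts. It is chr13:119690101-119690400 on the plus strand (RefSeq, GRCm38.p6), with the core CACCCCAC in capitals. That core, searched on both strands, is in 2.87% of the 32851 windows. Windows were at hand for 11 of the 16 enzymes, and 1 of the 11 held it.
Hmgcs1: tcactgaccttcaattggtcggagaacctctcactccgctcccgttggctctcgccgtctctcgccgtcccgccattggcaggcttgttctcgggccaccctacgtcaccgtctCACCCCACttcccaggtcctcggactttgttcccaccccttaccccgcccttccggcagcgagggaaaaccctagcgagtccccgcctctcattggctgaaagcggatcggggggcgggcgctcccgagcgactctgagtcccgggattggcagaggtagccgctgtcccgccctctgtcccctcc

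The count of cholesterol synthesis enzymes at an unadjusted p under 0.05 depended on the libraries and the scaling, while the median kept its sign. It was 6 to 11 of 16 with 1 mouse left out, 10 with TMM, 10 with edgeR, 13 with DESeq2 and 3 without the libraries with keratin reads, which left 4 APP/E4 mice and 2 E4 males. Of all genes 255 to 606 were higher with 1 mouse left out, 726 with TMM and 366 without the keratin libraries. With edgeR 5.3% of all genes were higher, and with DESeq2 6.07%. The median of the 16 was 0.19 to 0.25 with 1 mouse left out, and it was 0.21 without the keratin libraries and 0.20 without libraries of 10 CPM or more of *Drd2*. Females gave a median of 0.27, with 16 of 16 above 0 (47.3% of all genes), 10 higher at an unadjusted p under 0.05 (2.44%) and 0 lower (1.94%). Males gave 0.14, with 13 above 0 (34.3%) and 3 below, 2 higher at that threshold (3.24%) and 1 lower (9.29%). In APP/E3 against E3 mice the median was 0.15, with 15 of 16 above 0 (39.2% of all genes in that comparison), 6 of 16 higher at an unadjusted p under 0.05 (1.34%) and 0 lower (4.65%). In APP/E4/Trem2ko against E4/Trem2ko mice it was 0.09, with 12 of 16 above 0 (56.3%), 6 higher (11.3%) and 0 lower (7.23%). APOE4 minus APOE3 was above 0 in 12 of 16 (47.8% of all genes), with a median of 0.07 and 0 of 16 past an unadjusted p under 0.05 in either direction (2.95% of all genes higher and 3.13% lower). The 18 genes that export cholesterol or carry lipid had a median of -0.05, with 0 called.

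*Rims1*, *Ppfia2* and *Lsamp* came next by p on the higher side. *Rims1*, an active zone scaffold that docks synaptic vesicles, was 175 to 398 CPM in APP/E4 (median 227) and 133 to 213 in E4 mice (median 160), with 10 of 14 above all E4 mice (0.57, 0.30 to 0.84, limma adjusted p = 0.139). *Ppfia2*, a liprin of the same zone, had 0.30 (0.15 to 0.45, adjusted p = 0.231), and *Lsamp*, a neuronal adhesion protein, 0.39 (0.19 to 0.59, adjusted p = 0.231). *Ppfia2* and *Lsamp* had -0.02 each in APP/E3 against E3 mice. The differences between the backgrounds were 0.33 and 0.41, with unadjusted p of 0.0018 and 0.003, and did not pass adjustment. As groups, 18 presynaptic genes had a median of 0.00 and 18 postsynaptic genes 0.08, with 0 called in either. *Grin2b*, an NMDA receptor subunit, had the largest value among the postsynaptic genes (0.72, 0.13 to 1.31, adjusted p = 0.493).

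*Sec23a*, a coat protein of vesicles that leave the endoplasmic reticulum, was with *App* and *Prnp* the third gene higher in all APP/E4 than in all E4 mice (0.0213% of genes). It held 120 to 151 CPM against 106 to 119 (0.22, 0.10 to 0.35, limma adjusted p = 0.324). *Ppp2r5b*, a regulatory subunit of protein phosphatase 2A, was the 1 gene lower in all (0.0071%), at 120 to 144 CPM against 145 to 151 (-0.14, -0.25 to -0.04, adjusted p = 0.477). Both were picked out for not overlapping.

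On the lower side none passed the test in limma. *Pnpla2*, the lipase that starts the breakdown of stored triglyceride, was 13.1 to 17.6 CPM in APP/E4 mice (median 15.1), and the E4 mice held 15.7, 16.9, 19.4, 21.3, 26.2 and 35.0. No APP/E4 mouse reached the E4 median (-0.48, -0.71 to -0.26, limma adjusted p = 0.139). DESeq2 called *Pnpla2*, as did limma without E4 replicate 3. *Mt2*, a metal-binding metallothionein, was 16.1 to 51.3 CPM against 28.8 to 98.6 (-0.68, -1.05 to -0.32, adjusted p = 0.258), and its neighbour *Mt1* had -0.41 (-0.75 to -0.07, adjusted p = 0.497). The highest E4 value of both *Pnpla2* and *Mt2* came from mouse E3473, flagged below for *Hba-a1*. The next E4 mice held 26.2 and 61.5 CPM. Under all alternatives both genes stayed below 0, at -0.61 to -0.35 for *Pnpla2* and -0.90 to -0.50 for *Mt2*. *Rcc1*, a nuclear transport factor, had -0.35, *Mcm7*, a DNA helicase subunit, -0.36, *Gsdme*, a pore-forming gasdermin, -0.34 and *Slc1a5*, a glutamine transporter, -0.61, with adjusted p of 0.231, 0.258, 0.273 and 0.324. *Pnpla2* and *Slc1a5* had -0.00 and -0.03 in APP/E3 against E3 mice.

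Genes known to respond to plaques were not called in APP/E4 mice. Of 54 plaque-associated genes 0 were called, 2 were higher and 1 lower at an unadjusted p under 0.05 (3.04% and 6.25% of all genes), and the median was 0.02. With 1 mouse left out the counts were 1 to 7 higher and 0 to 3 lower and the median -0.01 to 0.08, with the 7 reached without E4 replicate 6. Over all genes 255 to 606 were then higher and 480 to 1275 lower. Of the 54, 5 were higher and 0 lower with TMM, against 726 and 585 of 14086 genes. With DESeq2 the counts were 6 and 0 (6.07% and 3.54% of all genes). In mice with intact *Trem2* alone they were 7 and 2, against 510 and 1118 of 14086 genes. After length and GC correction they were 9 and 0 (median 0.10), against 645 and 412 of 13900 genes. Without libraries of 10 CPM or more of *Drd2* they were 1 and 6, against 950 and 1796 of 14086 genes. In each of these settings 0 were called. Of 23 disease-associated microglia genes tested 0 were called and 2 were higher at an unadjusted p under 0.05, with a median of 0.07. *Cst7*, *Clec7a* and *Itgax*, defining genes of that state, were not analysed here. In bulk RNA fewer cells of a type and less RNA per cell cannot be told apart.

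*Trem2*, the microglial receptor that drives the disease-associated state, was 8.23 to 19.8 CPM in APP/E4 (median 12.5) and 7.18 to 18.9 in E4 mice (median 9.43). The highest E4 value came from mouse E3357, flagged below for *Tyrobp*, and the next E4 mouse held 11.7 CPM. For *Trem2* the groups overlapped, with 11 of 14 APP/E4 mice above the E4 median (0.30, -0.05 to 0.66, limma adjusted p = 0.585). Its adaptor *Tyrobp* had 0.10 (-0.33 to 0.53), the lysosomal marker *Cd68* 0.15 (-0.13 to 0.43), the cathepsin *Ctsd* 0.07 (-0.08 to 0.21) and the complement gene *C1qa* -0.05 (-0.28 to 0.17). The intervals of *Cd68*, *Ctsd* and *C1qa* exclude a doubling in the whole tissue.

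The microglial genes with the smallest p were *Mpeg1* and *Ccl6*. *Mpeg1*, the pore-forming perforin-2 of macrophages, was 34.2 to 82.6 CPM in APP/E4 (median 51.1) and 30.1 to 47.4 in E4 mice (median 42.3), with 11 of 14 above all E4 mice (0.44, 0.16 to 0.72, limma adjusted p = 0.446). *Ccl6*, a chemokine of the disease-associated state, was 0.839 to 4.25 CPM against 0.863 to 2.17 (0.51, 0.17 to 0.85, adjusted p = 0.460). Of 20 homeostatic microglia genes 17 lay above 0 (38.7% of all genes), with 0 called and a median of 0.14. Its markers *P2ry12*, *Cx3cr1*, *Csf1r* and *Tmem119* had 0.13, 0.14, 0.06 and 0.04.

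*Gfap*, the filament protein of reactive astrocytes, was 98.1 to 494 CPM in APP/E4 (median 258) and 110 to 252 in E4 mice (median 171), which overlapped (0.50, -0.02 to 1.02, limma adjusted p = 0.554). *Serpina3n*, a protease inhibitor of reactive astrocytes, had 0.45 (-0.12 to 1.02, adjusted p = 0.609) and *C4b*, complement component 4, 0.27 (-0.22 to 0.77, adjusted p = 0.726). The 12 reactive astrocyte genes had a median of -0.01 with 0 called, and the 14 homeostatic astrocyte genes a median of -0.10. The upper bounds of *Gfap* and *Serpina3n* leave room for a doubling. Mouse *Apoe*, which human *APOE4* replaces in all these mice, was 9.14 to 72.4 CPM in APP/E4 (median 16.8) and 13.2 to 22.5 in E4 mice (median 16.5), and its 3 highest APP/E4 libraries were the 3 with 50 CPM or more of *Alb*. What the mouse *Apoe* value counts in these mice was not tested.

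**Figure D4:**
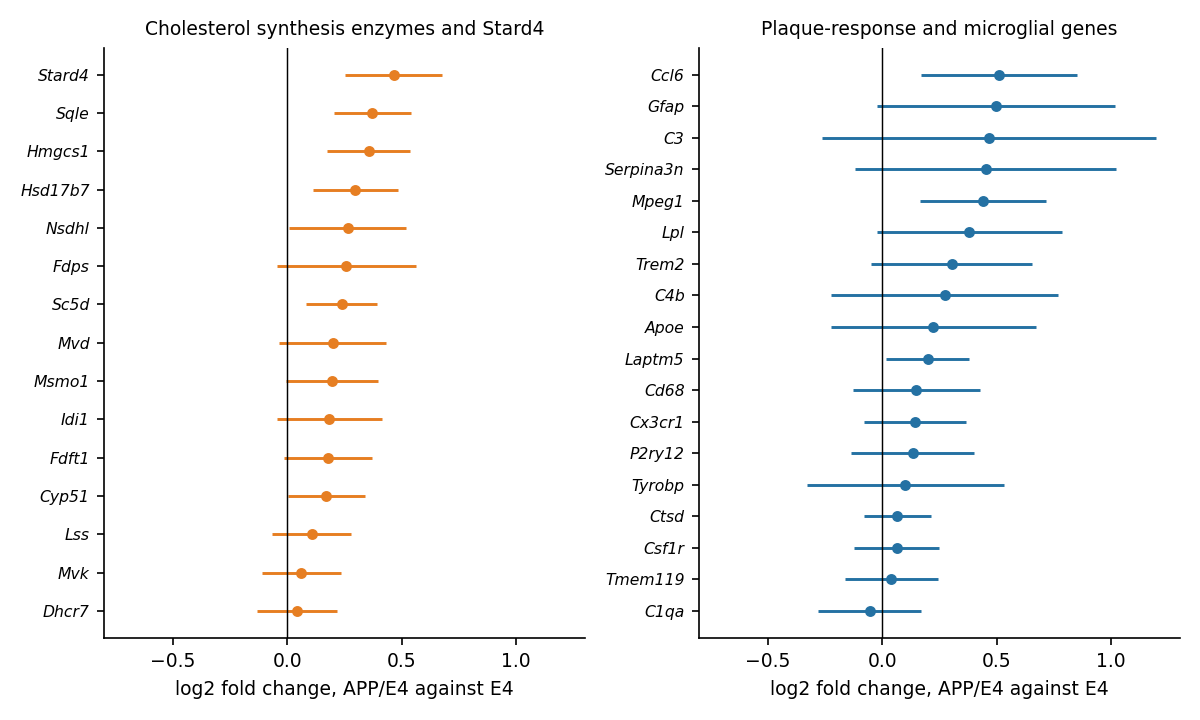
Log2 fold change in APP/E4 against E4 mice (points) with 95% limma intervals (lines) for 14 cholesterol synthesis enzymes with *Stard4* (left) and for 18 plaque-response and microglial genes (right). On the left every point is above 0, from 0.04 to 0.46, and on the right most intervals cross 0.

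The plaque-response genes had medians of opposite sign in the sexes, and no single gene's difference passed adjustment. In females 47 of 54 plaque-associated genes were above 0 (47.3% of all genes in that comparison), 13 were higher at an unadjusted p under 0.05 (2.44%), 0 were lower (1.94%) and the median was 0.15. In males 10 of 54 were above 0 (34.3%), 7 were lower (9.29%), 0 were higher (3.24%) and the median was -0.14. The median of all genes was -0.01 in females and -0.09 in males, so the male plaque median lay nearer to its background. The 23 disease-associated microglia genes had medians of 0.17 in females and -0.09 in males. The difference, females minus males, was above 0 in 51 of 54 (64% of all genes) and past an unadjusted p under 0.05 in 16 (7.49%), with 16 positive (5.27%), 0 negative (2.21%) and 0 past adjustment in limma.

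*Gfap* had the smallest p in females among the 54 genes. In females it was 225 to 494 CPM in 7 APP/E4 mice (median 311) and 110, 138, 153 and 189 in 4 E4 mice, with no overlap, a log2 fold change of 1.14 and a limma adjusted p of 0.385. In males it was 98.1 to 300.2 CPM in 7 APP/E4 mice (median 214) and 239 and 252 in 2 E4 mice, a log2 fold change of -0.46. The difference was 1.60 with an unadjusted p of 0.00071 and an adjusted p of 0.636.

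*Laptm5*, a lysosomal membrane protein of leukocytes and microglia, was 59.8 to 81.4 CPM in APP/E4 females and 45.4 to 56.9 in E4 females. These again did not overlap (0.43, limma adjusted p = 0.385), and the male value was -0.06. How many of all genes separate the 7 APP/E4 and 4 E4 females was not counted. *Hexa*, a lysosomal hexosaminidase subunit, had 0.34 in females and -0.26 in males, *C4b* 0.77 and -0.41, and *Cd68* 0.47 and -0.26. These examples were taken from the 13 plaque-associated genes higher at an unadjusted p under 0.05 in females. In that set only *Mpeg1*, with 0.58 and 0.33, and *Trem2*, with 0.52 and 0.08, were above 0 in both sexes. *App* had 1.25 in females and 1.2 in males, and *Prnp* 1.77 and 1.67. The male side rests on 2 E4 mice, and keratin reads of 1 CPM or more were in 4 of 4 E4 females and 0 of 2 E4 males, against 5 of 7 APP/E4 mice of each sex, so sex and keratin reads cannot be told apart among E4 mice.

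Several lists for other cell types had negative medians, the lowest of them in blood cell genes. All 12 myelin genes were below 0 (61.3% of all genes), with a median of -0.41, 0 called and 1 lower at an unadjusted p under 0.05 (6.25%). With 1 mouse left out 0 to 7 were lower at that threshold, against 480 to 1275 of all genes. *Mog*, a surface protein of the myelin sheath, was 15.2 to 54.6 CPM in APP/E4 and 35.7 to 58.7 in E4 mice, and 7 of 14 APP/E4 mice lay below all E4 mice (-0.46, -0.95 to 0.03, limma adjusted p = 0.557). In APP/E3 against E3 mice the 12 genes had a median of 0.42, and APOE4 minus APOE3 was below 0 in 12 of 12, with 10 past an unadjusted p under 0.05 (3.13% of all genes on that side) and 0 past adjustment.

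All 13 striatal neuron genes were below 0 (61.3% of all genes), with a median of -0.74 and 0 called. *Drd2* was 0.769 to 63.9 CPM in APP/E4 (median 2.19) and 0.915 to 64.1 in E4 mice (median 19.6), nearly the same range (-1.35, -3.21 to 0.51). It reached 10 CPM in 4 of 14 APP/E4 and 4 of 6 E4 libraries, a larger share in E4. Leaving out libraries of 10 CPM or more of *Drd2* left 10 APP/E4 and 2 E4 mice. There the median turned to 0.36 for the striatal genes. It was -0.79 for the myelin genes, with 8 of 12 lower at an unadjusted p under 0.05. Of all 14086 genes 1796 were lower at that threshold in those mice, and the median of all genes was -0.08. The 3 blood cell genes had a median of -1.24, which was -1.77 to -0.50 with 1 mouse left out, the -0.50 without E4 replicate 4, and -2.40 with edgeR. Of these *Hba-a1*, alpha globin, was 0.45 to 10.9 CPM in APP/E4 and 0.455 to 80.1 in E4 mice. The striatal median was -1.14 to -0.28 with 1 mouse left out.

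Immediate early genes, which neuronal firing induces, had a median of -0.43 over 20 members, with 18 below 0 (61.3% of all genes) and 0 at an unadjusted p under 0.05 in limma. At that threshold 5 were lower with edgeR (4.05% of all genes), 5 with DESeq2 (3.54%) and 6 with a striatal marker covariate (median -0.64), with 0 called in each. With that covariate 1025 of all 14086 genes were lower. *Egr1* was 124 to 527 CPM in APP/E4 (median 267) and 223 to 741 in E4 mice (median 308), which overlapped (-0.50, -1.21 to 0.22, limma adjusted p = 0.646). The group median was -0.58 in females and 0.16 in males, and 0.13 without the keratin libraries, and it was -0.56 to -0.11 with 1 mouse left out.

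**Figure D5:**
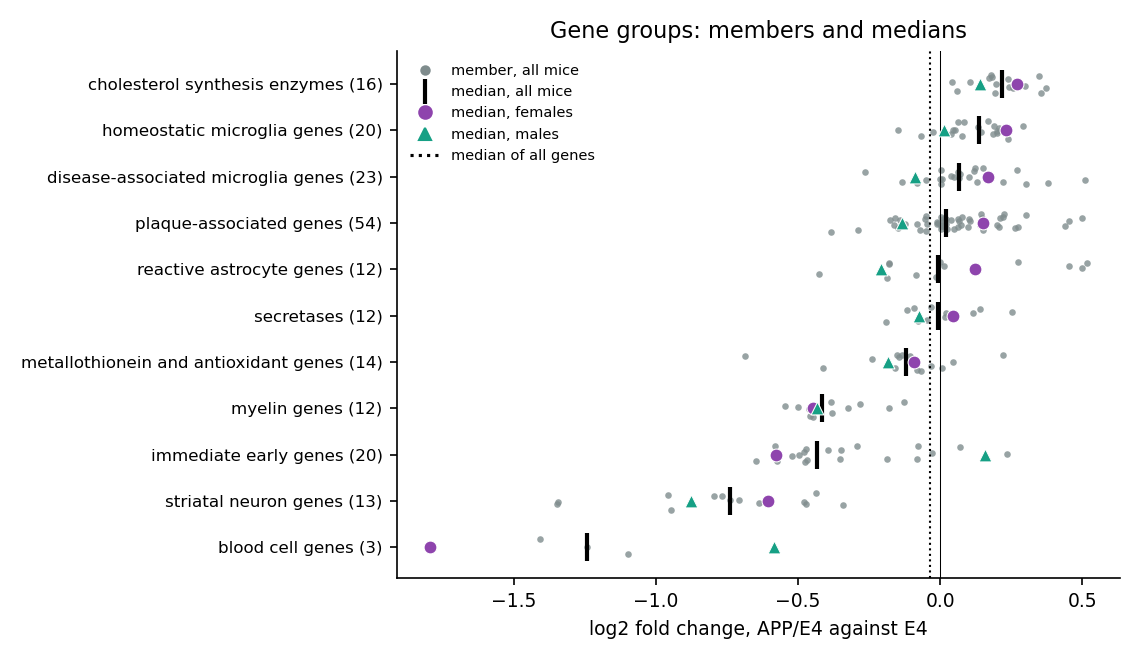
Log2 fold change in APP/E4 against E4 mice of the members (grey points) of 11 gene groups with the number tested in brackets, with the group median over all mice (black bar), in females (circle) and in males (triangle), and the median of all genes at -0.04 (dotted). Cholesterol synthesis enzymes have medians of 0.22, 0.27 and 0.14, and plaque-associated genes 0.02, 0.15 and -0.14. For all genes the medians are -0.04, -0.01 and -0.09.

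Of the remaining groups none held a called gene. Respiratory complex I subunits lay below 0 in 35 of 36 (61.3% of all genes), with 1 lower at an unadjusted p under 0.05 (6.25%). Their median was -0.09, beside -0.04 for all genes. Cytosolic ribosomal proteins had a median of -0.06 over 49 genes, circadian clock genes -0.11 over 16, unfolded protein response genes -0.11 over 14 and brain endothelial genes -0.09 over 12. Interferon response genes had 0.12 over 12 and antigen presentation genes 0.01 over 15.

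The intervals bound what was not called. For 13702 of 14086 genes (97.3%) the 95% interval excluded both a doubling and a fall to the inverse of one, and the median reach of the interval to either side was 0.22 on the log2 scale. *Gfap*, *Serpina3n* and *Drd2* had wider intervals, as given above.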

How the data were processed

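Frontal cortex RNA of 88 mice was sequenced, 1 library per mouse, and 20 mice entered this comparison by the genotype in their labels. The authors deposited gene-level CPM, and the submitters' processing notes name the mm10 build, featureCounts and edgeR (versions and annotation not given in the sources used here). The table held 14497 entries, of which 46 repeated another and were removed, and 0 columns of no sample. The deposited CPM came back as whole reads in 100% of values (tolerance 0.01), so count tests could be run on recovered reads. A sequencing batch is named in the methods but not in the labels and was not modelled.

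Values were tested as log2(CPM + 0.5) where a gene averaged 1 CPM or more over the 88 mice, with limma 3.58.1 (R 4.3.3) on 8 genotypes and sex, Benjamini-Hochberg adjustment and 95% intervals. A fold change on this scale understates the change of low genes. Sex-specific effects came from a fit with sex within genotype. CPM differences were tested by exact permutation, and correlations with 100000 resamples (scipy 1.17.1). edgeR 4.0.16 called 2 genes higher and 1 lower on the recovered reads, and DESeq2 1.42.0 and sva 3.50.0 served other alternatives, with pseudocounts of 0.1 and 1, TMM scaling, other filters, covariates and sample sets, libraries that stood apart, and each mouse left out. Python 3.11.15, numpy 2.4.6 and pandas 2.3.3 were used, and the model code was tested on simulated data.

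Named genes were the transgene-related genes, called genes, the 10 higher and 10 lower genes of smallest p whose log2 fold change reached 0.3 in either direction, the 4 smallest p-values within each of 39 lists, and 12 plaque-response genes. Other genes were named after their values were seen, as members that illustrate a list, as cell markers or for not overlapping. Some genes that this rule names are not reported here, though they stay in the fits, adjustments and list counts. The comparison and the lists were chosen with earlier results of these data known. Positions are GENCODE GRCm38, found for 14225 genes (98.4%), and promoter windows are from RefSeq.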

Additional observations from a re-analysis of the deposited data

Results flagged for a closer look

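Of 38 values checked among the 6 E4 mice, 6 had 1 mouse far from the others, by the gap to its neighbour relative to the whole range of the group. Chance marks about 1 group in 20 in such a check where values are normally distributed and items are separate. The items flagged here were raw CPM of unchecked shape, and the blood cell sum includes *Hba-a1*. The 6 therefore cannot be set against that rate. Mouse E3357 was high in *Tyrobp*, the adaptor of *Trem2*, at 11.5 CPM with the next mouse at 5.6, and low in *Lsamp* at 41.8 CPM with the next at 55.2. Mouse E3473 held *Hba-a1* at 80.1 CPM with the next at 10.6, and its summed blood cell genes were 210.0 CPM with the next at 31.7. Mouse E3679 held *Ttr* at 389.0 CPM with the next at 19.4, and its summed choroid plexus genes were 878.0 CPM with the next at 248.0.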

How the results depend on the processing

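*App* and *Prnp* were called under all 39 alternatives, with log2 fold changes of 1.17 to 1.28 and 1.62 to 1.77. Genes called higher numbered 7 with DESeq2 (also *Sqle*, *Stard4*, *Rims1*, *Ppfia2* and *Lsamp*), 5 with 2 surrogate variables (also *Fam126a*, *Lsamp* and *Ppfia2*), 3 in a fit of only the 2 genotypes compared (also *Stard4*), 3 without keratin libraries (also *Rims1*), 3 without libraries of 10 CPM or more of *Drd2* (also *Stard4*), and 2 to 4 with 1 mouse left out. The 4 were reached without APP/E4 replicate 1 (with *Sqle* and *Stard4*) and without E4 replicate 6 (with *Sqle*). Genes called lower numbered 1 with edgeR (*Angpt2*), 3 with DESeq2 (*Angpt2*, *Fmo2* and *Pnpla2*), 2 without keratin libraries (*Fbxl12* and *Rnpep*), 2 without libraries of 10 CPM or more of *Drd2* (*Rcc1* and 2310011J03Rik, an alternative chosen after seeing the data), and 0 to 1 with 1 mouse left out (*Pnpla2* without E4 replicate 3). The causes were not tested. With 1 mouse left out, genes at an unadjusted p under 0.05 numbered 255 to 606 higher and 480 to 1275 lower. Over 178 named genes, 6910 values under the alternatives held 6735 with the same direction and call and 23 that became called, and the rest were uncalled values that changed sign, with 0 called values reversed. No paired analysis was possible because the replicate numbers are names given in accession order to separate mice and link no mouse of one group to one of the other. The 6 E4 mice, of which 2 are male, limit the intervals.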
